A study of Homo sapiens with 6 samples.

Results

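The 10 genes described here encode the enzymes that methylate lysine 9 of histone H3 (EHMT1, EHMT2, SUV39H1, SUV39H2, SETDB1 and SETDB2), the corepressor TRIM28 and the HP1 proteins that bind the methylated lysine (CBX1, CBX3 and CBX5). They were chosen by name, and all 10 were found among the 18404 genes of the table, each with a single row. The RNA was taken from BE(2)-C, a cell line established from a human neuroblastoma that carries extra copies of the oncogene MYCN, and was hybridised to Affymetrix arrays. The 3 treated samples received 5 µM BIX01294 for 24 h and the 3 control samples 0.05% DMSO for 24 h, and the labels give no solvent content for the treated ones. All cells grew in medium with dialyzed serum, and the series design text calls the samples independent.

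BIX01294 inhibits the catalytic domain of G9A (EHMT2) and GLP (EHMT1), which work as a pair and place mono- and dimethyl marks on lysine 9 in euchromatin. SUV39H1 and SUV39H2 trimethylate the same lysine at repeats around centromeres. SETDB1 trimethylates it at retroelements and other targets, brought there by TRIM28, which binds zinc finger repressors. HP1 proteins recognise the methylated lysine through a chromodomain, bind other proteins through a chromoshadow domain and compact chromatin. The inhibitor acts on enzyme activity, so the transcript levels below neither measure the inhibition nor check the sample labels.

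All values are log2 expression values as deposited, each difference is BIX01294 minus DMSO, and a gene was called changed at an adjusted p under 0.05 in limma over all 18404 genes. By that rule 23.6% of all genes were called, 12.9% higher and 10.7% lower. Array medians over all rows were 6.984, 6.986 and 7.013 in DMSO and 6.943, 6.981 and 6.959 in BIX01294. Every BIX01294 median thus lay slightly below every DMSO median. Of 11 neuroblastoma markers 9 were measured, with mean levels in DMSO from 9.32 (ISL1) to 13.54 (MYCN), all above the upper quartile of 9.17 over all genes. The 3 haematopoietic markers measured lay at 3.80 to 7.88, the 4 epithelial ones at 5.06 to 7.95 and the 7 mesenchymal ones at 5.33 (FN1) to 10.40 (VIM). Some markers moved with treatment: 1 neuroblastoma marker rose and 4 fell, the mesenchymal markers VIM and DCN rose and fell, CD68 rose and none of 4 epithelial markers was called; their part in the results was not tested.

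Of the 10 genes, 3 were called: SUV39H1 and SUV39H2 rose and SETDB1 fell. That share is near the 23.6% of all genes. The other 7, among them both drug targets and all 3 HP1 genes, did not pass the test. The promoters of the 3 called genes are printed to show the sequence around their starts. They are RefSeq windows of 300 bases on GRCh38.p14, from 250 bases before a start to 50 after it, all on the plus strand: SUV39H1 at chrX:48696484-48696783, SUV39H2 at chr10:14878616-14878915 and SETDB1 at chr1:150926113-150926412. Capitals mark matches, on either strand, to the CCAAT box (CCAAT), the GC box (GGGCGG), the cyclic AMP response element (TGACGTCA) and the E-box (CACGTG).
SUV39H1: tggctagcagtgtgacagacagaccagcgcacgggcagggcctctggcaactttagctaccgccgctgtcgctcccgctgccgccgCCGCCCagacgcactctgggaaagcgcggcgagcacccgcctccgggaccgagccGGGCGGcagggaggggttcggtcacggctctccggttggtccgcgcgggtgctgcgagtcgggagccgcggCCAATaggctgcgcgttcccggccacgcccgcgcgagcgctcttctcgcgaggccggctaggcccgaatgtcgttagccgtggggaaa
SUV39H2: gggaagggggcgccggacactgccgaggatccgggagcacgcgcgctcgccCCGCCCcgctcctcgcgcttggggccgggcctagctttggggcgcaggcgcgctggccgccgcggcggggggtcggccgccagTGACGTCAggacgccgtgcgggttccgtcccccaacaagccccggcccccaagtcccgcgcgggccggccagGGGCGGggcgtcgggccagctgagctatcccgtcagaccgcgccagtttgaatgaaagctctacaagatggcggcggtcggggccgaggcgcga
SETDB1: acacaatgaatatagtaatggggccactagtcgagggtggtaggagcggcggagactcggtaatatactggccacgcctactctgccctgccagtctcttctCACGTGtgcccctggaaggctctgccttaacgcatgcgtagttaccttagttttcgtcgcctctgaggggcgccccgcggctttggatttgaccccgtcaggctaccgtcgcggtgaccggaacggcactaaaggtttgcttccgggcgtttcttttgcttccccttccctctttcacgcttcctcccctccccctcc

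The SUV39H1 and SUV39H2 windows each held 2 GC boxes, and 42 and 44 CpG dinucleotides. The SETDB1 window held 22 CpG, no GC box and 1 E-box. The median over all promoters was 16 CpG, and 58.6% of promoters had fewer than SETDB1. Among genes not called, the windows held 51 (EHMT1), 38 (CBX1), 29 (SETDB2), 25 (EHMT2 and CBX5) and 19 (CBX3). Only the SUV39H2 window among those of the 9 members found in the promoter table (TRIM28 was not) held the cyclic AMP response element, which 1.99% of the 27305 promoters searched contain. It lies at positions -116 to -109 relative to the start. GC boxes were found in 7 of the 9 windows and in 47% of all promoters, and E-boxes in 3 of the 9 (EHMT2, SETDB1 and CBX5) and in 7.53% of all. A CCAAT box was found in 3 of the 9 (SUV39H1, SETDB2 and CBX5) and in 34.9% of all. The same windows were searched for E2F motifs (TTTCCCGC, TTTGGCGC or TTTCGCGC; in CBX3 alone, and in 2.93% of all), motifs of ATF4 (TGATGCAA or TGATGAAA; in none of the 9, and in 1.91% of all), and TGACGT, which overlaps the cyclic AMP response element and was found in SUV39H2 alone and in 8.28% of all. Where RefSeq gives several starts (2 each for SUV39H1 and SETDB1, 3 for CBX5), the window with the most CpG was used, for these genes and for all others, which raises the CpG counts of such genes. These are matches of letters and were not tested against the expression values.

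The drug targets come first. EHMT2 measured 8.45, 8.50 and 8.48 in the DMSO arrays and 8.44, 8.55 and 8.43 in the BIX01294 arrays. The groups overlapped, and the BIX01294 arrays held both the highest and the lowest value. The difference was 0.00037 on the log2 scale, with a 95% confidence interval of -0.13 to 0.13 (limma, adjusted p 0.998). EHMT1 measured 8.63, 8.51 and 8.54 in DMSO and 8.69, 8.71 and 8.62 in BIX01294. The highest DMSO array lay just above the lowest BIX01294 array. The difference of 0.11 had an interval of -0.024 to 0.25 and did not pass (adjusted p 0.226 in limma). Both intervals leave out a change as large as that of SUV39H1 described next, but not smaller changes, up to 0.13 for EHMT2 and 0.25 for EHMT1.

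SUV39H1 and SUV39H2, a pair of closely related enzymes, both rose. SUV39H1 measured 8.32, 8.28 and 8.29 in DMSO and 8.74, 8.74 and 8.64 in BIX01294. Every BIX01294 array lay above every DMSO array, and the gap between groups exceeded the spread within either. The mean was 8.30 ± 0.022 in DMSO and 8.71 ± 0.059 in BIX01294 (SD, n = 3 arrays each), a 1.33-fold rise with a difference of 0.41 ± 0.055 (SE) and an adjusted p of 0.00143 in limma. SUV39H2 measured 10.07, 10.01 and 9.97 in DMSO and 10.42, 10.31 and 10.42 in BIX01294. Again the groups did not overlap. SUV39H2 rose 1.29-fold, by 0.36 ± 0.059 (SE), with an adjusted p of 0.00352 in limma. Among the 2379 genes that rose, the 2 genes ranked 702 and 948 by size of change, and the median absolute change of all called genes was 0.33. Both calls held in all 14 alternatives, with adjusted p of at most 0.0193 in limma.

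**Figure D1:**
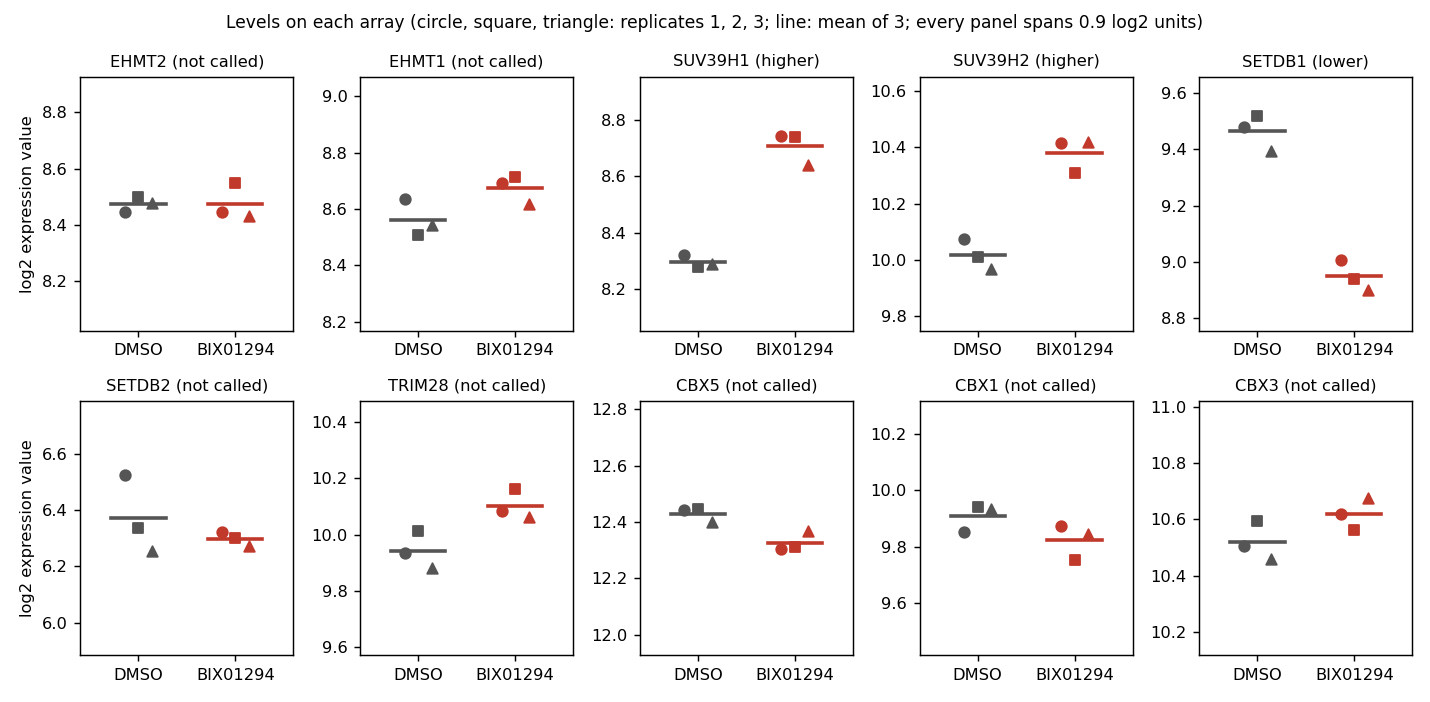
Log2 expression value of each of the 10 genes on each array, with DMSO in grey and BIX01294 in red; symbols are replicates 1 to 3, lines are means of 3 arrays, and every panel spans the same height. The groups stand apart most for SETDB1, SUV39H1 and SUV39H2, while the EHMT2 means coincide at 8.47.

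SETDB1, the methyltransferase that TRIM28 recruits, was the only one of the 10 genes that fell past the threshold. It measured 9.48, 9.52 and 9.39 in DMSO and 9.01, 8.94 and 8.90 in BIX01294. All BIX01294 arrays lay below all DMSO arrays. The mean was 9.46 ± 0.063 in DMSO and 8.95 ± 0.054 in BIX01294 (SD, n = 3 arrays each), a 1.43-fold fall with a difference of -0.51 ± 0.059 (SE) and an adjusted p of 0.000753 in limma. It ranked 408 of the 1970 genes that fell, and the call held in all 14 alternatives (adjusted p at most 0.00587 in limma). Its relative SETDB2 measured 6.53, 6.34 and 6.25 in DMSO and 6.32, 6.30 and 6.27 in BIX01294, so the DMSO arrays enclosed the treated ones. Its difference was -0.074, with an interval of -0.25 to 0.10 and an adjusted p of 0.552 in limma, and it was 0.0033 without DMSO replicate 1. The table gives no detection call, so neither this level nor that of any other gene was shown to be above background. SETDB2 was the only 1 of the 10 genes below the median level of all genes.

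TRIM28, the scaffold between zinc finger repressors and SETDB1, measured 9.93, 10.01 and 9.88 in DMSO and 10.08, 10.16 and 10.06 in BIX01294. The groups did not overlap, but the gap was narrow. The difference of 0.16 ± 0.060 (SE), with an interval of 0.023 to 0.30, did not pass over all genes (adjusted p 0.0927 in limma). It passed when the dimmer genes, those under the median level, were dropped (0.0256) and with an intensity trend and robust estimation (0.0213), and its adjusted p ran from 0.0213 to 0.237 over 14 alternatives. Separate groups of values were seen in 5 of the 10 genes, the 3 called ones, TRIM28 and CBX5, and in 40.1% of all genes.

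None of the 3 HP1 genes passed the test in limma (0 had an unadjusted p under 0.05), and their differences did not share a sign. The share of all genes under that unadjusted threshold was not counted. It is at least the 23.6% called, since every called gene also has an unadjusted p under 0.05. CBX5 (HP1 alpha), found mainly in heterochromatin, measured 12.44, 12.44 and 12.40 in DMSO and 12.30, 12.31 and 12.37 in BIX01294. The treated arrays were all lower, by a difference of -0.10 with an interval of -0.22 to 0.018 (adjusted p 0.210 in limma). It passed only with the trend and robust estimation (limma, adjusted p 0.0269), and its adjusted p ran up to 0.481 over 14 alternatives. CBX1 (HP1 beta) measured 9.85, 9.94 and 9.93 in DMSO and 9.87, 9.75 and 9.85 in BIX01294. These groups overlapped, and the difference was -0.085 with an interval of -0.22 to 0.051 (adjusted p 0.365 in limma). CBX3 (HP1 gamma), also found in active genes, measured 10.50, 10.59 and 10.46 in DMSO and 10.62, 10.56 and 10.68 in BIX01294. The groups overlapped here too, with a difference of 0.10 and an interval of -0.039 to 0.24 (adjusted p 0.294 in limma). For all 3 HP1 genes the intervals leave out a change of the size seen in SETDB1.

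**Figure D2:**
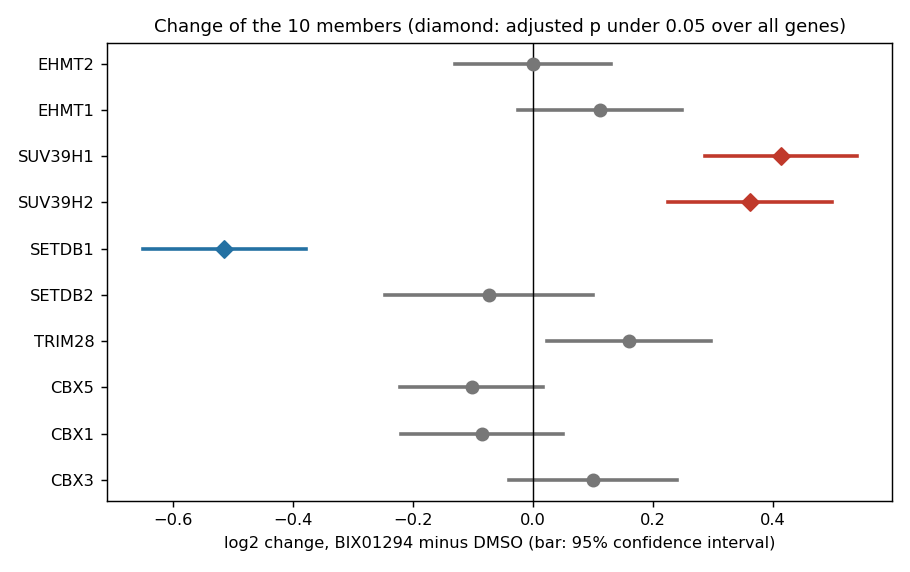
Log2 change, BIX01294 minus DMSO, of each of the 10 genes with its 95% confidence interval from limma; diamonds passed an adjusted p of 0.05 over all genes. SUV39H1 (0.41) and SUV39H2 (0.36) lie to the right, SETDB1 (-0.51) to the left, and the interval of TRIM28 leaves out 0 although its adjusted p is 0.0927.

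To ask whether related genes moved apart, the difference between a pair of genes was taken within each array, which removes any shift shared by that array. The levels of different probes cannot be compared, so each difference is given relative to its mean in the DMSO arrays. SETDB1 against SETDB2 was at -0.14, 0.089 and 0.050 in DMSO and at -0.41, -0.45 and -0.46 in BIX01294. The difference for this pair changed by -0.44, but SETDB2 was not shown to be above background, so this value cannot be told apart from the fall of SETDB1 alone and says nothing of SETDB2. CBX3 moved against CBX5 by 0.20 and CBX1 against CBX3 by -0.19, and in both pairs the groups did not overlap. Both pairs share the CBX3 values, so they are not separate observations. The share of gene pairs without overlap was not counted, and among single genes it was 40.1%. For CBX3 against CBX5 the BIX01294 arrays were at 0.22, 0.16 and 0.22 and the DMSO arrays at -0.027, 0.059 and -0.032. SUV39H1 against SUV39H2 (0.050), EHMT1 against EHMT2 (0.11) and CBX1 against CBX5 (0.017) overlapped between the groups. With 3 arrays against 3 the exact two-sided permutation test cannot go below 0.10, which the 3 pairs without overlap reached (0.20 after adjustment over the 6 pairs), so none could pass 0.05.

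**Figure D3:**
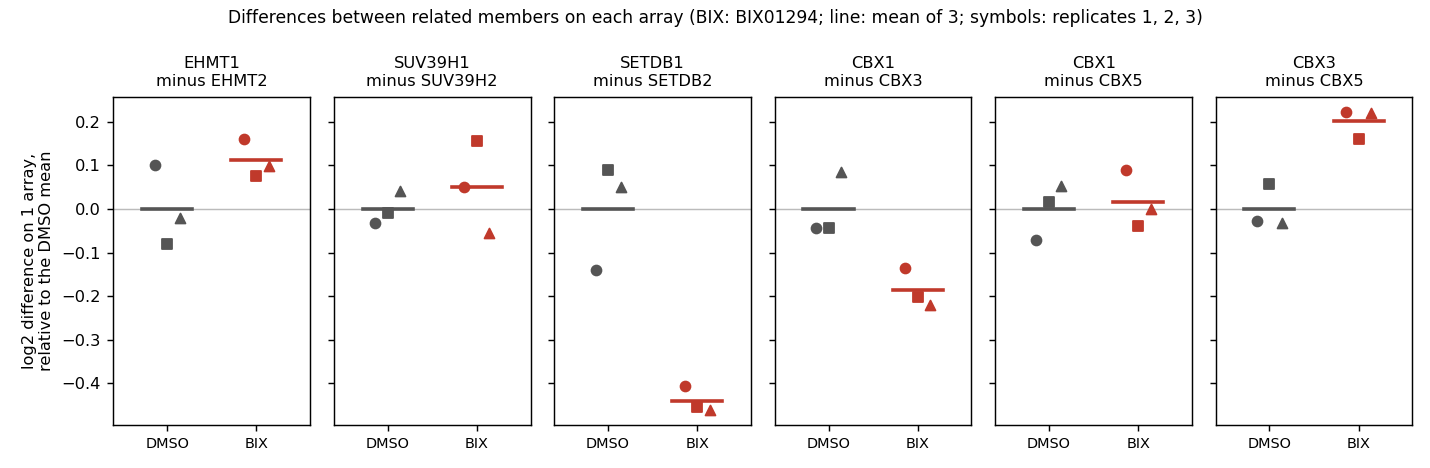
Difference between the log2 values of related genes on each array, relative to the mean of the 3 DMSO arrays, for 6 pairs; grey is DMSO, red is BIX01294 and lines are means of 3. The groups do not overlap for CBX1 minus CBX3 (-0.19) and CBX3 minus CBX5 (0.20), which share the CBX3 values. Nor do they for SETDB1 minus SETDB2 (-0.44), where SETDB2 was not shown to be above background.

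Other genes of the pathway were read from 9 lists with 75 measured genes of 81, of which 10 rose and 9 fell. The shares over all genes, 12.9% higher and 10.7% lower, apply beside each list's counts in the main fit below. The counts over the 75 genes are near these shares. Alternatives called other shares of all genes, given at the end, such as 2850 higher and 1899 lower of 9202 with the filter at the median level. The median change over the lists was 0.021, against -0.0059 for all genes and 0.050 for the 10 genes above. Among 10 measured cofactors of SETDB1 and TRIM28, 1 rose and 2 fell, with a median of 0.0074. ATF7IP, the partner that stabilises SETDB1 in the nucleus, measured 11.40, 11.38 and 11.37 in DMSO and 10.76, 10.84 and 10.82 in BIX01294. The groups stood far apart relative to their spread, and ATF7IP fell by 0.58 on the log2 scale, the largest change in the 9 lists (adjusted p 0.000258 in limma). The deacetylase HDAC1 fell 1.30-fold (10.69 to 10.32), while TRIM24, a relative of TRIM28, rose 1.18-fold. The deacetylase HDAC2 and the remodeller CHD3, which TRIM28 binds, differed by 0.069 and 0.013 and did not pass.

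The partners of G9A and GLP held no called gene among 8 in limma, with a median of 0.018. An unadjusted p under 0.05 was seen in 3, and the share of all genes under it was not counted. That share is at least 23.6%, since every called gene also has an unadjusted p under 0.05. The count of called partners depended on the processing: 1 fell after quantile normalization, and 1 rose and 1 fell with the trend and robust estimation. The filter at the median level left 6, of which 2 rose and 1 fell, beside 2850 and 1899 of the 9202 genes left. WIZ, the zinc finger protein that holds the 2 enzymes together, differed by 0.025, and ZNF280D had the largest difference, -0.16 (adjusted p 0.124 in limma). In the HUSH complex list, which silences retroelements with SETDB1, 1 of 6 fell and none rose, with a median of 0.078, but 1 rose after median centring, with either filter on dim genes and with the trend and robust estimation. The ATPase MORC2 fell 1.19-fold, and it did not pass without DMSO replicate 1 (limma, adjusted p 0.0597) or BIX01294 replicate 1 (0.0503). None of 4 PRDM family members was called in limma, 0 had an unadjusted p under 0.05, the median was -0.0017 and PRDM8 differed most, by -0.10 (adjusted p 0.344 in limma). PRDM16 measured 6.27 in DMSO, and among the partners of G9A and GLP CDYL2 measured 6.21 and GFI1 6.04. These levels, like those of all genes here, were not shown to be above background.

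Among genes of proteins that bind HP1, 4 of 14 rose, 2 fell and 8 did not pass, with a median of 0.060. CHAMP1, a chromosome alignment protein, was at 8.32 ± 0.087 in DMSO and 8.83 ± 0.039 in BIX01294 (SD, n = 3 arrays each), a 1.42-fold rise (limma, adjusted p 0.000955). SGO1, which protects cohesion at centromeres, rose 1.29-fold. LRIF1, a partner of HP1 and SMCHD1, was at 9.12 ± 0.10 in DMSO and 8.61 ± 0.072 in BIX01294 (SD, n = 3 arrays each), a 1.42-fold fall, and the transposase-derived POGZ fell 1.21-fold. In this list 3 genes rose and 4 fell after quantile normalization, beside 2256 and 2282 of 18404 genes. With the filter at the median level 5 rose and 4 fell, beside 2850 and 1899 of 9202. The trend and robust estimation also gave 5 and 4, beside 2991 and 2333 of 18404. SMCHD1, a chromatin protein of the inactive X named because its call was unstable, rose 1.17-fold and was called in 7 of 14 alternatives: it lost its call after quantile normalization (adjusted p 0.0805 in limma), with the replicate block (0.0580) and without any single array other than BIX01294 replicate 1 (0.0598 to 0.0944). Of the 3 H4K20 methyltransferases, KMT5C, which HP1 brings to heterochromatin, fell 1.24-fold and the other 2 did not pass, with a list median of 0.011. KMT5C lost its call without DMSO replicate 1 (adjusted p 0.0507 in limma).

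In polycomb repressive complex 2, which methylates lysine 27 of histone H3, 2 of 11 genes rose and 2 fell, with a median of 0.068. The rising count was 4 with the filter at the lower quartile and at the median level, beside 2712 of 13803 and 2850 of 9202 genes. It was 5 with the trend and robust estimation, beside 2991 of 18404. The catalytic subunit EZH1 fell 1.45-fold (8.73 to 8.20) and JARID2, an accessory subunit, 1.40-fold. The core subunit EED rose 1.26-fold and PHF19 1.20-fold. The other catalytic subunit, EZH2, differed by 0.16 and did not pass (adjusted p 0.0826 in limma). Of 16 other lysine methyltransferases 2 rose and 1 fell, with a median of 0.019. The falling count was 3 after quantile normalization, beside 2282 of 18404 genes, and 2 with the filter at the median level, beside 1899 of 9202. It was also 2 with the mean of a gene's rows, beside 1960 of 18404, and with the trend and robust estimation, beside 2333. SMYD2 rose 1.37-fold and DOT1L 1.24-fold, and SETD5 fell 1.30-fold. DOT1L lost its call without DMSO replicate 3 (adjusted p 0.0539) or BIX01294 replicate 1 (0.0584) or 2 (0.0569 in limma). Of 3 polycomb CBX genes measured of 5, CBX6 rose 1.29-fold and the others did not pass, with a median of -0.059. CBX7 lay at 6.13 in DMSO, a level not shown to be above background. An unadjusted p under 0.05 in limma was seen in 9 of 14 genes of proteins that bind HP1. It was also seen in 6 of 11 genes of polycomb repressive complex 2 and 3 of 10 cofactors of SETDB1 and TRIM28. In the HUSH list 2 of 6 had it, and 1 of 3 H4K20 methyltransferases. Among other lysine methyltransferases 4 of 16 had it, and 2 of 3 polycomb CBX genes. The share over all genes, not counted, is at least 23.6%.

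**Figure D4:**
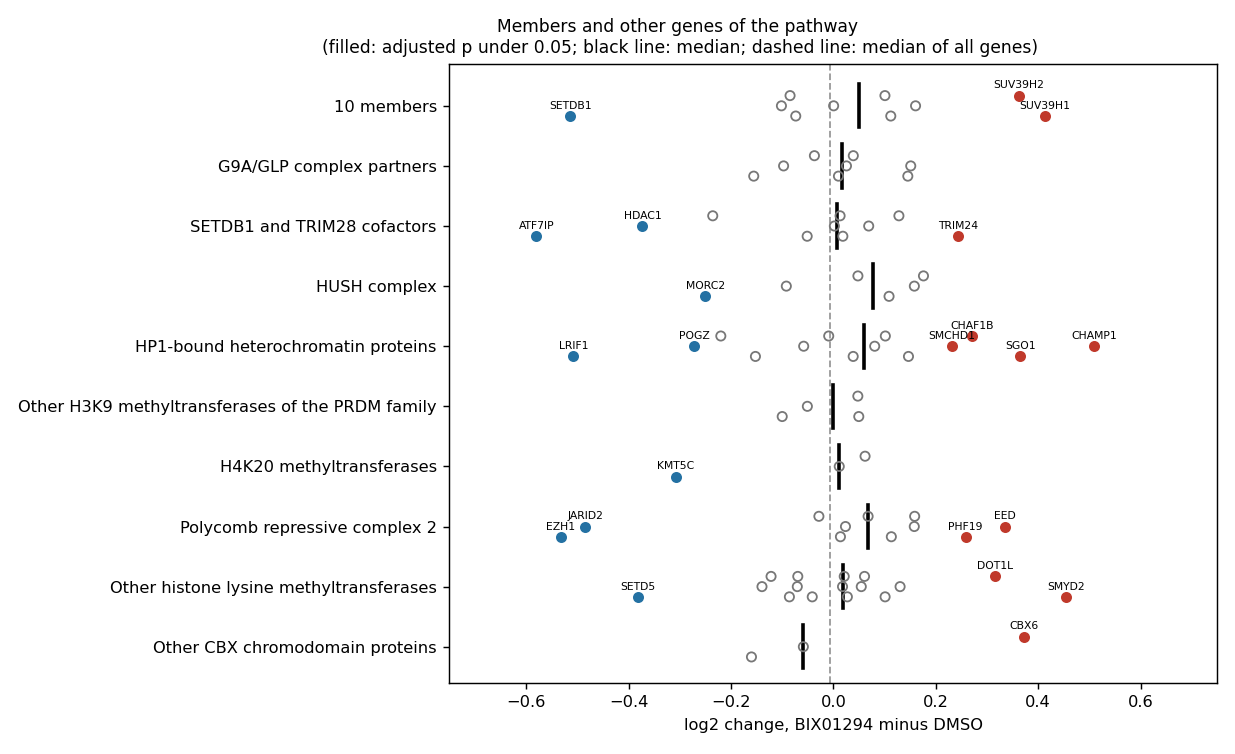
Log2 change, BIX01294 minus DMSO, of the 10 genes and of each measured gene in the 9 pathway lists, 1 row per list; filled points passed an adjusted p of 0.05 over all genes (red higher, blue lower), black lines are medians and the dashed line is the median of all genes (-0.0059). ATF7IP lies farthest to the left at -0.58, below SETDB1 at -0.51.

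The nearest measured genes beside the 10 on their chromosomes, by the RefSeq gene table, gave 21 neighbours, of which 2 rose and 2 fell (23.6% of all genes were called). SETDB1 lies on chromosome 1 between ARNT, a dimer partner of hypoxia-inducible factors, which fell 1.22-fold (9.83 to 9.54), and CERS2, a ceramide synthase, which rose 1.17-fold. The fall of SETDB1 was thus shared in direction by 1 of its neighbours and not by the other. CERS2 lost its call without DMSO replicate 2 (adjusted p 0.0544 in limma). Beside SUV39H2 on chromosome 10, the chaperone HSPA14 rose 1.18-fold, and the overlapping DNA repair gene DCLRE1C differed by -0.023 and did not pass. HSPA14 lost its call with the replicate number as a block (adjusted p 0.0514) and without BIX01294 replicate 1 (0.0580) or 3 (0.0743 in limma). The neighbours of SUV39H1 on the X chromosome, WAS and GLOD5, did not pass, nor did HNRNPA2B1, which lies beside CBX3 and differed by 0.034. NFE2L1, beside CBX1 on chromosome 17, fell 1.30-fold.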

How the data were processed

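Total RNA of 6 BE(2)-C samples was measured on 1 array each. The values deposited by the authors were made with Partek, per the submitters' processing notes, and their range (1.93 to 14.93) is that of a log2 scale, with 1 value per transcript cluster and array. How they were background-corrected, normalized and summarized is not given in the sources used here. Precision is limited by the number of arrays.

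Among 32321 rows, 19158 had 1 gene symbol in the platform annotation, 1388 several and 11775 none. Where a gene had several rows (637 of 18404), the brightest by mean was kept. Groups were taken from the sample titles. The values were fitted with limma 3.58.1 in R 4.3.3 (treatment only, empirical Bayes, two-sided, Benjamini-Hochberg over 18404 genes, threshold 0.05). The fit was checked on data simulated with independent normal noise of equal variance in both groups. That check does not show that these arrays meet those assumptions. The alternatives were quantile normalization, median centring, 2 filters on dim genes, the mean of a gene's rows, the replicate number as a block, array weights, an intensity trend with robust estimation, and each array left out. In each list up to 4 called genes with the smallest adjusted p are named, or the largest change where none was called; HDAC2, CHD3, SMCHD1, WIZ, EZH2 and the neighbours that were not called were named after their values were seen. The members, lists, motifs and the choice of the start window richest in CpG were made with earlier results of these data known.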

Additional observations from a re-analysis of the deposited data

How the results depend on the processing

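SUV39H1, SUV39H2 and SETDB1 kept their direction and call in all 14 alternatives, and EHMT1, EHMT2, SETDB2, CBX1 and CBX3 were called in none of those that tested them. The count of falling members was 2 with the intensity trend and robust estimation, which added CBX5. The count of rising members was 3 in that fit and with the filter at the median level, where TRIM28 was added. The counts over the 9 lists were 10 higher and 9 lower in the main fit. After quantile normalization 14 were lower, beside 2256 genes higher and 2282 lower of all 18404. When genes under the median level were dropped, 16 were higher and 14 lower (69 of the 75 tested), beside 2850 and 1899 of 9202. With the trend and robust estimation 16 were higher, beside 2991 and 2333 of 18404. The filter at the lower quartile called 2712 higher and 2147 lower of 13803 genes. Median centring called 2762 and 1536 of 18404, and the mean of a gene's rows 2360 and 1960. The cause was not tested. Of the genes called, 54.7% were higher as deposited, 49.7% after quantile normalization and 64.3% after centring. The difference of EHMT2, near 0, was -0.021 after quantile normalization, -0.0058 with array weights and -0.037 to 0.022 with 1 array left out; SETDB2 ran from -0.13 to 0.0033 with 1 array left out. The pair CBX1 and CBX5 differed by -0.023 after quantile normalization and by -0.020 to 0.045 with 1 array left out, and SUV39H1 and SUV39H2 by -0.0019 to 0.10. The labels do not say that equal replicate numbers share a culture. Deviations from the group mean correlated at 0.19, -0.18 and 0.054 for same-numbered arrays, and at -0.32 to 0.29 for arrays of different numbers. The numbers were therefore not taken as pairs. With the replicate block 2 members rose and 1 fell, as without it, and 1987 genes rose and 1654 fell over all genes. The table holds no detection call, so no level, that of SETDB2 included, is separated from background.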

Other observations

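No row with several gene symbols held any of the 10 genes. A gene of the pathway lists stood in 3 such rows, and in a limma fit over all 32321 rows none of the 3 was called, with differences of 0.015, 0.14 and 0.13 on the log2 scale and adjusted p of 0.9002, 0.426 and 0.247.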
